A study of Mus musculus with 20 samples.

Results

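Young mice that overexpress human α-synuclein were compared with control mice of the same age at every autosomal CpG listed for them. Methylation had been measured by reduced representation bisulfite sequencing, in which an enzyme digest enriches the CpG-rich fraction of the genome and bisulfite conversion tells methylated from unmethylated cytosines. The 8 libraries, of 20 in the series, were all those labelled 3 months. The HEM group (4 libraries, replicates 1, 2, 3 and 7) carried full-length human wild-type α-synuclein under the murine Thy-1 promoter, inserted on the X chromosome. The WT group (4 libraries, replicates 1, 3, 4 and 5) held wild-type controls. Both were on the B6D2F1/J background, a cross of 2 inbred strains, and in both the DNA came from brain homogenate enriched for microglia. The series' design text counts 3 WT mice at this age, and all 4 libraries labelled so were used. Nothing in the labels says that each library is a separate mouse, so p-values measure the spread between these libraries. Of 1234494 listed CpG positions, 1208113 lay on the 19 autosomes and were used. HEM and WT mice of 13 months (8 and 4 libraries) gave values for the same loci in other animals.

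DNA methylation marks cytosines that precede guanines. In mammals it is sparse at CpG-dense gene starts and heavy in gene bodies and in the space between genes, and at imprinted genes 1 parental copy is methylated and the other is not. α-Synuclein is a presynaptic protein that aggregates in Parkinson disease, and microglia, the brain's resident immune cells, take up and respond to its aggregates. The Thy-1 promoter directs expression mainly to neurons, so the cells enriched here are not those in which the transgene is chiefly expressed.

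The values were percent methylation per CpG without read counts, so the depth behind each value is unknown. Means over the gene regions of microglia marker genes were 56.2%, 53.4%, 48.5% and 47.5% in HEM replicates 1, 2, 3 and 7, and 53.5%, 53.5%, 49.4% and 46.7% in WT replicates 1, 3, 4 and 5. Libraries of both genotypes thus stood at both ends of that range. Across the 1 kb tiles tested below, the deviations of HEM replicates 1 and 2 from their group mean correlated with those of WT replicates 1 and 3 at r = 0.0877 to 0.257, and with those of WT replicates 4 and 5 at -0.152 to -0.208. HEM replicates 3 and 7 showed the opposite signs, at -0.251 to -0.0889 with WT replicates 1 and 3 and 0.151 to 0.205 with WT replicates 4 and 5. These correlations are across tiles and describe the libraries only. In bulk tissue a different share of a cell type and a different level within its cells cannot be told apart. No expression values were used here, so the microglial label was not tested against marker expression. The labels used here state no sex.

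The library labelled WT replicate 3 went with the HEM libraries at 4 CpGs about 1 kb past the annotated end of Thy1 (chr9:44049598-44049669, mm10). Thy1 is the endogenous gene whose promoter the transgene uses. Levels at the 4 CpGs were 52.6%, 46.8%, 37.4% and 40.6% in HEM, against 83.9%, 38.9%, 89.2% and 89.5% in WT. HEM minus WT came to -31.0 points (two-sided exact permutation p = 0.114) with that library and -43.2 points without it (exact permutation p = 0.0286, the smallest p that 4 against 3 libraries allow). Both the CpGs and the library left out were chosen after their values were seen. Without that library the groups could not overlap, so the second p was fixed by the choice and gives no support. Labels were kept as given, and the counts of called loci below were 0 for each kind of locus with it and without it.

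Mean methylation over the listed autosomal CpGs, a CpG-rich part of the genome, differed between the genotypes by less than the spread between libraries. The mean over autosomal CpGs was 31.5%, 31.3%, 31.5% and 31.2% in HEM and 31.6%, 31.1%, 32.1% and 31.1% in WT. Group means were 31.4% (SD 0.162) for HEM and 31.5% (SD 0.449) for WT, n = 4 each, a difference of -0.0546 points (exact permutation p = 0.886). The HEM range lay inside the WT range. With WT replicate 4, the most methylated library, left out, HEM was 0.144 points above WT (exact permutation p = 0.4).

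No class of CpG passed the test either. CpGs inside coding genes averaged 26.2% ± 0.148 in HEM and 26.3% ± 0.397 in WT, and CpGs outside coding genes 60.1% ± 0.376 in HEM and 60.1% ± 0.766 in WT. The 104141 CpGs within 1 kb outside a gene end were at 6.08% ± 0.0417 in HEM and 6.14% ± 0.138 in WT. Levels fell with the number of listed positions per kb, which counts covered positions and not all CpGs of the genome. CpGs with 1 to 2 listed per kb were at 73.3% in HEM and 73.3% in WT. Those with 30 or more listed per kb were at 1.80% in HEM and 1.84% in WT. Among CpGs of intermediate level (20% to 80% over the 8 libraries), which have room to move either way, means were 56.5% ± 0.621 in HEM and 56.7% ± 1.86 in WT. The class nearest to a difference held the 667381 CpGs under 5%, at 0.451% ± 0.0360 in HEM and 0.490% ± 0.0252 in WT (exact permutation p = 0.143, adjusted p = 1 over 31 classes). Each of the 19 autosomes had group means within 0.113 points of each other.

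**Figure D1:**
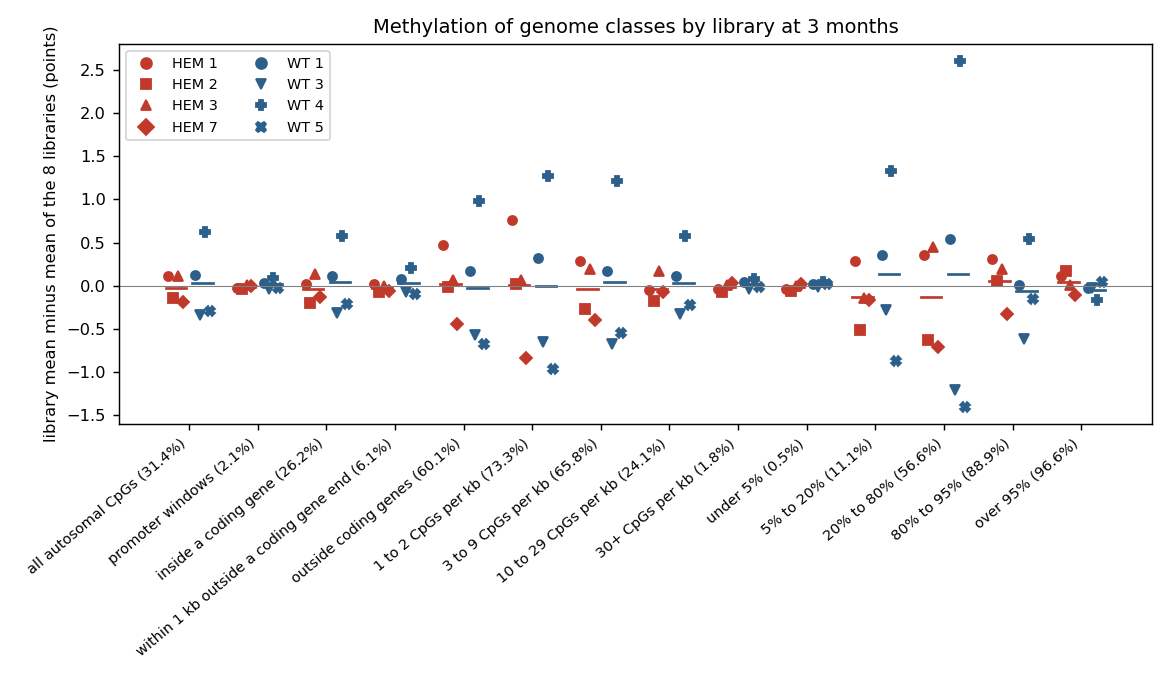
Mean methylation of classes of autosomal CpGs, as the difference in percentage points of each library (points) from the mean of the 8 libraries, with HEM left of WT and short lines at group means; the level of each class stands in brackets. WT replicate 4 stood highest in each class but that over 95%, and the group lines lay farthest apart, at -0.266 points for HEM minus WT, in the class of 20% to 80%.

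Gene starts were covered by 152927 listed CpGs in windows from 250 bases before to 50 bases after the annotated start, and were nearly free of methylation in both genotypes. Their mean was 2.13% ± 0.0217 in HEM and 2.17% ± 0.0593 in WT (SD, n = 4 each; exact permutation p = 0.4). Libraries were also as far from others of their own genotype as from those of the other. The mean absolute difference per tested CpG was 8.84 points between HEM and WT libraries, 8.92 points among HEM libraries and 8.81 points among WT libraries (exact permutation p = 0.886 for separation and 0.914 for unequal spread). The sign of both contrasts turned when single libraries were left out.

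At single loci the question was which CpGs, 1 kb tiles, gene regions or promoter windows differed. Loci with a mean of 5% to 95% were tested with limma on a log2 ratio of methylated to unmethylated percent, with Benjamini-Hochberg adjustment. Loci counted as called when the adjusted p was under 0.05 and the genotypes differed by 10 points or more (CpGs) or 5 points or more (the others). No locus was called: 0 of 481630 CpGs, 0 of 76410 tiles, 0 of 12631 gene regions and 0 of 910 promoter windows (0% called in each). At an unadjusted p under 0.05 there were 21717 CpGs (4.51%), 3408 tiles (4.46%), 480 gene regions (3.8%) and 49 promoter windows (5.38%). All 4 HEM libraries lay on 1 side of all 4 WT libraries at 12992 CpGs (2.7%), 1917 tiles (2.51%), 270 gene regions (2.14%) and 26 promoter windows (2.86%). Both directions occurred: among those CpGs 6322 were higher (1.31%) and 6670 lower (1.38%) in HEM, among tiles 986 (1.29%) and 931 (1.22%), among gene regions 120 (0.95%) and 150 (1.19%), and among promoter windows 17 (1.87%) and 9 (0.989%). The higher mean was in HEM at 49.5% of CpGs and 49.5% of tiles. Leaving out WT replicate 1 gave 56 called CpGs, 21 higher and 35 lower in HEM, and without HEM replicate 3 there was 1.

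Differences of most loci were small. The median absolute difference was 3.40 points for CpGs, 1.83 for tiles, 0.440 for gene regions and 2.08 for promoter windows. Only 13 tiles were higher and 18 lower in HEM by 20 points or more, and 1, lower in HEM, differed by 30 or more. Median SDs within a genotype were 3.50 points in HEM and 3.45 points in WT for tiles. Among tiles that varied most between libraries, the share without overlap was close to that of all tiles (2.51%). It was 2.81% of 2312 tiles whose 8 libraries spanned 30 points or more, and 1.09% (1 tile) of 92 that spanned 50 points or more.

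The tile of smallest p lay between genes on chromosome 7 (chr7:107085001-107086000, mm10), 10218 bp from the olfactory receptor gene Olfr714. Its 5 CpGs averaged 68.8%, 74.8%, 73.1% and 78.0% in HEM and 94.7%, 92.5%, 92.2% and 94.1% in WT. All 4 HEM libraries were lower than every WT library, and the WT libraries lay closer together. The group means were 73.7% ± 3.85 in HEM and 93.4% ± 1.21 in WT (SD, n = 4 each), a difference of -19.7 points (limma adjusted p = 0.0802). All 5 CpGs (positions 107085757 to 107085799) were lower in HEM, by 6.93 to 33.2 points, and 3 of them without overlap, as at 2.7% of all CpGs. The tile was picked for its p, and CpGs this close are usually read on the same fragment. Their shared direction is therefore not separate support, and the same holds for close CpGs of the loci named below. The tile passed the threshold when only tiles with a mean of 10% to 90% were tested (limma adjusted p = 0.0432) and when tiles needed at least 5 CpGs (adjusted p = 0.0144), both of which leave fewer tiles to adjust over. In mice of 13 months the same tile was at 89.3% ± 7.47 in the 8 HEM libraries, against 89.2% ± 3.99 in the 4 WT libraries (SD).

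Among the 10 tiles of smallest p with higher values in HEM, the 3 widest differences were near Osbp2, near Gxylt1 and inside Col3a1. Col3a1 encodes a fibrillar collagen of vessel walls. Its tile (chr1:45331001-45332000) was at 72.8%, 77.2%, 71.2% and 79.4% in HEM and 48.0%, 54.8%, 58.9% and 50.6% in WT, a difference of 22.1 points (limma adjusted p = 0.994). All 4 CpGs were higher in HEM, by 13.4 to 34.04 points. The tile 2002 bp from Osbp2, an oxysterol-binding protein gene, was at 63.9%, 73.6%, 56.1% and 73.3% in HEM and 32.8%, 45.3%, 48.6% and 33.3% in WT. The tile 33730 bp from Gxylt1, a glycosyltransferase gene of Notch modification, was at 89.8%, 96.2%, 91.9% and 95.6% in HEM and 65.7%, 53.7%, 81.8% and 79.6% in WT. Groups did not overlap at either, and WT libraries near Gxylt1 were the more scattered group (SD 3.02 in HEM and 13.1 in WT). A tile inside Plekha7, an adherens junction gene, differed by 16.2 points. A tile inside Bco1, a carotenoid-cleaving enzyme gene, and 4 tiles outside coding genes were nearly fully methylated, at 93.9% to 98.8% in single HEM libraries and 84.5% to 93.3% in single WT libraries, and differed by 4.46 to 9.39 points. The coding genes nearest to those 4 lay far off: St6galnac2 at 24219 bp, Ets2 at 99952 bp, Eya1 at 162966 bp and Cdh7 at 947237 bp.

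Among the 10 tiles with lower values in HEM, Slc41a2, Pald1 and Brd1 followed with the widest differences. The tile in Slc41a2, a magnesium transporter gene, was at 42.8%, 25.1%, 35.7% and 34.8% in HEM and 58.3%, 70.9%, 68.9% and 58.8% in WT (-29.7 points). Its 3 CpGs each were lower in HEM, by 27.6 to 32.01 points. Brd1 encodes a bromodomain scaffold of histone acetyltransferase complexes. Its tile (chr15:88701001-88702000) was at 52.2%, 50.9%, 59.4% and 66.4% in HEM and 74.96%, 83.8%, 80.01% and 83.6% in WT (-23.4 points). The difference sat in 7 CpGs at 88701005 to 88701042, each lower in HEM by 20.7 to 37.3 points, while the other 2 CpGs of the tile, at 88701701 and 88701742, differed by 1.70 and -2.75 points. CpGs this close are usually read on the same fragment and are not separate measurements. The tile in Pald1 differed by -23.8 points, in Sec14l1 by -19.8 points, in Dlc1, a tumour suppressor gene, by -14.7 points and in Kcna6, a voltage-gated potassium channel gene, by -9.52 points. The remaining tiles, in Ripor3 and Hagh and 2714 bp from Zfp386, differed by -9.72 to -7.32 points. Each of these 18 tiles had a limma adjusted p of 0.994. Neighbouring tiles rarely moved together: no run of 3 tested tiles had an unadjusted p under 0.05 in 1 direction, and 26 runs of 2 did, the Dlc1 tile being part of 1.

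**Figure D2:**
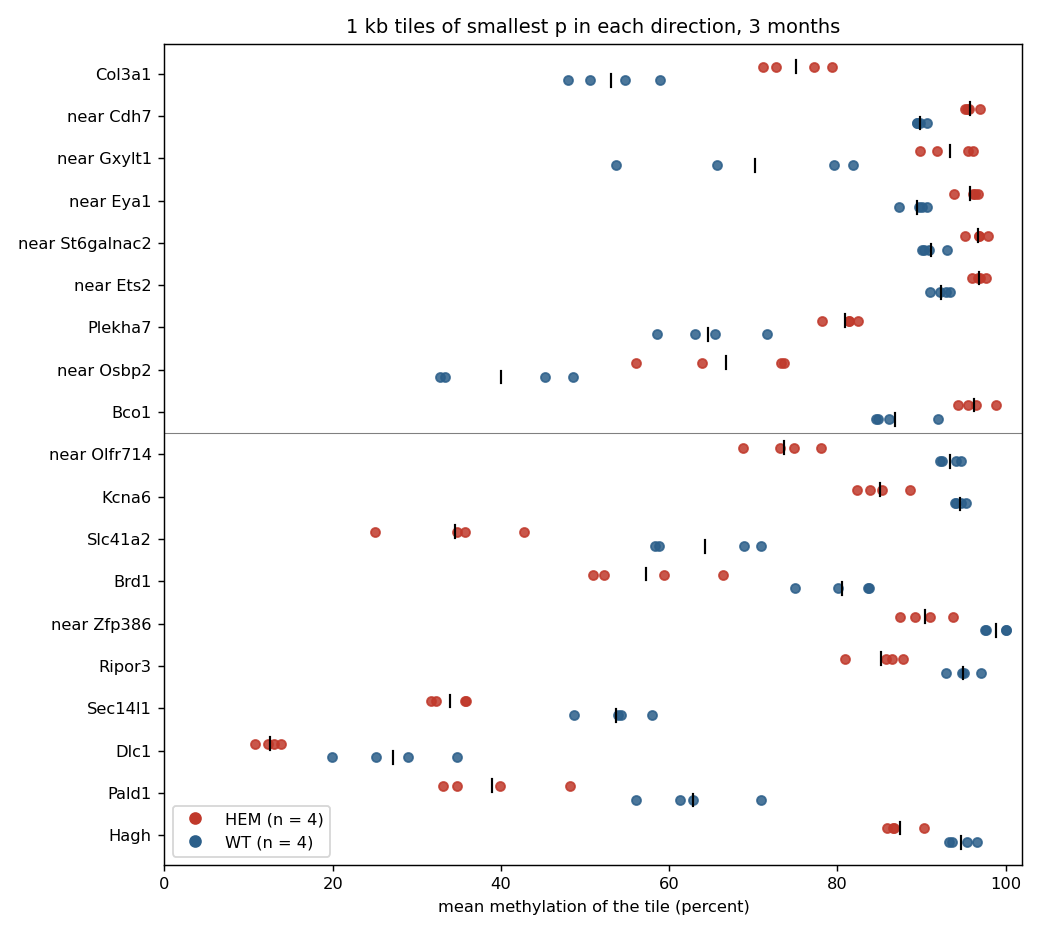
Mean methylation (percent) of 9 of the 10 tiles of smallest limma p with higher values in HEM (top) and the 10 with lower values (bottom), 1 point per library, HEM above WT in each row, bars at group means and "near" before the closest coding gene at any distance. Groups do not overlap in any row, as at 2.51% of all tiles, but the rows were picked for a small p, which favours this. The tile near Olfr714 combined a wide gap with little scatter in WT.

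Gene regions, each an annotated gene with 1000 bp either side, averaged at least 3 CpGs, in some cases many, and differed less. The 20 of smallest p are given here by what their genes do, not as a tested theme. Cd37, which encodes a tetraspanin of leukocytes, was at 23.3%, 21.2%, 21.8% and 23.6% in HEM and 27.9%, 27.9%, 26.6% and 27.3% in WT, a difference of -4.96 points. Tnfrsf8, the gene of the lymphocyte activation marker CD30, differed by -2.08 points, and Pglyrp2, which encodes an enzyme that cleaves bacterial peptidoglycan, by -3.28 points. Lat, an adaptor gene of T-cell receptor signalling, was higher in HEM by 3.82 points, and Hcar2, a receptor gene for hydroxy acids and niacin, by 1.44 points. None overlapped between groups, as at 2.14% of gene regions. They were picked for a small p, which favours groups apart, so this is not separate support. None passed the test (limma adjusted p = 0.999 for each of the 20).

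The widest differences of the 20 were in Mtrf1, the predicted gene LOC115486419 and Col3a1. Mtrf1, a mitochondrial translation release factor gene with 10 CpGs, was at 61.9%, 64.7%, 67.1% and 72.9% in HEM and 80.4%, 74.9%, 76.3% and 78.7% in WT (-10.9 points). Col3a1 was at 56.9%, 60.9%, 55.0% and 53.9% in HEM and 43.0%, 48.8%, 48.6% and 45.8% in WT (10.1 points). The 8 CpGs of the Col3a1 region include the 4 of its tile. LOC115486419, with 9 CpGs, differed by -10.5 points, and Spata22, a meiosis gene with 4, by 7.56 points. Smim41, with 8 CpGs, differed by -6.56 points and Spns3, with 15, by -6.26 points. Evpl, an epidermal cross-linking gene with 139 CpGs, differed by 3.08 points, Hs3st6, a heparan sulfate sulfotransferase gene with 62, by 0.772 points, and Mpp4, a photoreceptor scaffold gene with 45, by -1.67 points. Slc5a4a, Smim38 and Ccdc42 differed by 3.25 to 4.17 points, Prss50, a testis protease gene, by -3.97 points, Taf12, a general transcription factor gene, by 0.913 points and Thg1l, a tRNA-modifying enzyme gene, by -0.860 points.

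Of 31396 placed promoter windows, 910 had 3 or more CpGs and a mean of 5% to 95%, and 443 of these (48.7%) had the higher mean in HEM. The sequences of 6 windows follow, because the promoter results turn on them: the 3 of largest difference with higher values in HEM, the 1 with most CpGs, and 2 with lower values. Listed CpGs are in capitals. The sequences are RefSeq's on GRCm38.p6, each read in the direction of its gene, with 250 bases before the start and 50 after it.

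Snrpn, chr7:60005150-60005449, minus strand: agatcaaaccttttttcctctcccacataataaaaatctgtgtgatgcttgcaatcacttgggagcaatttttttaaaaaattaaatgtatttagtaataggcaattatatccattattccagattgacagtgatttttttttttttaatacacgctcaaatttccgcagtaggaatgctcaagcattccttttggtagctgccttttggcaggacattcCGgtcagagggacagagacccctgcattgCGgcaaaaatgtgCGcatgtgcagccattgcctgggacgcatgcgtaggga
Adad2, chr8:119612463-119612762, plus strand: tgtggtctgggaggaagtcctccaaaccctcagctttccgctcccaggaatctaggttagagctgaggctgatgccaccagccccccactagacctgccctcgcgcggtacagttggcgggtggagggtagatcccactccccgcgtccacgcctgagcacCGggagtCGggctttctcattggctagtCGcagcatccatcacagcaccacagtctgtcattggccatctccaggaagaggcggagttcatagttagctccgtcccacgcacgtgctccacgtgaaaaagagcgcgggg
Prnd, chr2:131950787-131951086, plus strand: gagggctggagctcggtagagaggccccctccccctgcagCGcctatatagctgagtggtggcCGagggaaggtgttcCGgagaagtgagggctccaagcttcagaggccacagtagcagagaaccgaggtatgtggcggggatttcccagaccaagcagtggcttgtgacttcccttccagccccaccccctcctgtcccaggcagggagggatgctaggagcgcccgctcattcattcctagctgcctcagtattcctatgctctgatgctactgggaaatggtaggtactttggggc
Rpl39l, chr16:10169978-10170277, plus strand: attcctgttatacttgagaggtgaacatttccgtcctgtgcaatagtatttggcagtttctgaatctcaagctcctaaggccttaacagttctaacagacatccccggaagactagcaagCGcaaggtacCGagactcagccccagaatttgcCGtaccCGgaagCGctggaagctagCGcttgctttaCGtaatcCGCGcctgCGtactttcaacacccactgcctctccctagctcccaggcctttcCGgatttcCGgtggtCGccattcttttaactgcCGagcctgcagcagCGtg
Kcnk18, chr19:59219398-59219697, plus strand: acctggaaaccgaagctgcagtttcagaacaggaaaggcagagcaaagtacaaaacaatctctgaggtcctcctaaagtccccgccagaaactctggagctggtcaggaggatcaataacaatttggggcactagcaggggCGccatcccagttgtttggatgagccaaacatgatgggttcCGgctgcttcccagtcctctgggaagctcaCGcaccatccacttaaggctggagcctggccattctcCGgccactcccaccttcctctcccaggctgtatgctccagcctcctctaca
Tstd1, chr1:171418783-171419082, plus strand: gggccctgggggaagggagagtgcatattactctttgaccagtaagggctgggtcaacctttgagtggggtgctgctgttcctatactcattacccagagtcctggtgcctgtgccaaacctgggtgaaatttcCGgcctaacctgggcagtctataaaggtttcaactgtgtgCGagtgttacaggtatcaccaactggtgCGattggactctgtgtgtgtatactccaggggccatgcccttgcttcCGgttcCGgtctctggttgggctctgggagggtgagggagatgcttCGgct

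At Snrpn, an imprinted gene of a small nuclear ribonucleoprotein that is expressed from the paternal copy, the promoter window gave the largest difference of any tested window. Snurf, encoded by the same transcript, shares the window. Its 3 CpGs, from 30 bases before to 12 bases after the start, averaged 93.3%, 95.1%, 91.9% and 91.5% in HEM and 18.3%, 43.7%, 3.18% and 92.1% in WT. All HEM libraries were nearly fully methylated, whereas WT libraries were spread over most of the scale and WT replicate 5 lay inside the HEM range. Group means were 93.0% ± 1.62 in HEM and 39.3% ± 39.0 in WT (SD, n = 4 each; exact permutation p = 0.0857, limma adjusted p = 0.880). HEM minus WT came to 53.6 points over all libraries and to 71.2 points without WT replicate 5. With that library left out the exact permutation p was 0.0286, the smallest possible, and the window was called (limma adjusted p = 0.0176). The library was singled out after its value was seen, as the only WT library inside the HEM range. Without it the groups could not overlap, so this permutation p was fixed by the choice and gives no support.

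The next 20 listed positions, 57 to 619 bases into the gene, behaved differently. They were partly methylated in every library, at 36.8% ± 3.67 in HEM and 38.0% ± 7.25 in WT (exact permutation p = 0.771), with single libraries between 29.7% and 47.2%. The difference at Snrpn was found at the 3 CpGs of the start and was not detected in the adjoining ones. At 13 months 1 of the 3 CpGs was listed. It stood at 95.1%, 80%, 0%, 96.3%, 17.8%, 96.8%, 92.2% and 37.2% in the 8 HEM libraries, against 85.2%, 0.855%, 92.2% and 0% in the 4 WT libraries (exact permutation p = 0.422). Libraries of both genotypes were then found at the top and at the bottom of the scale.

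**Figure D3:**
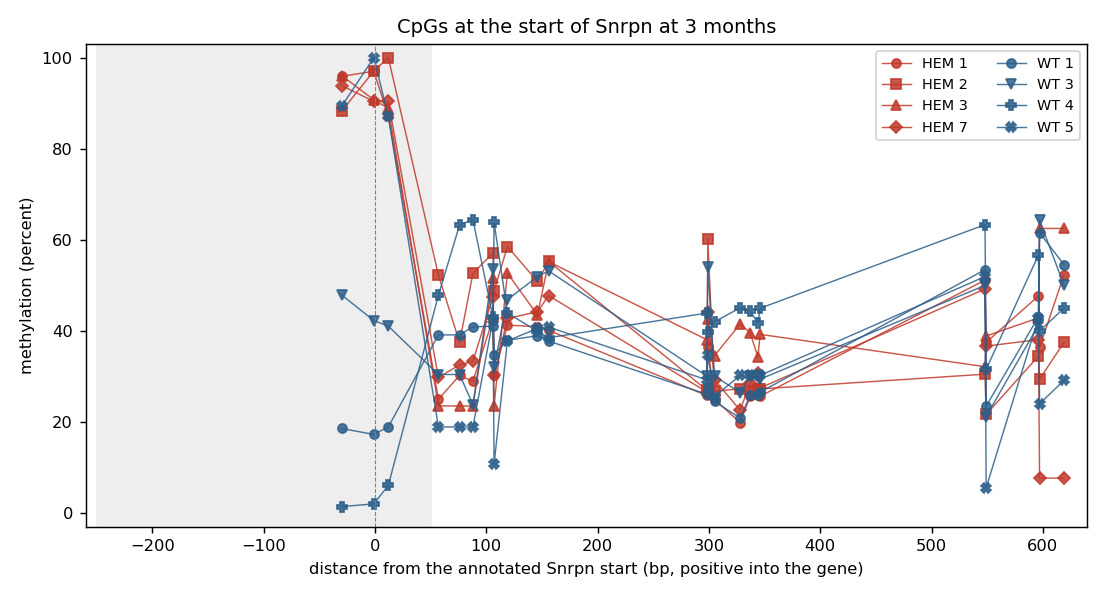
Methylation (percent) of each listed position at the start of Snrpn by distance from the annotated start in bases, 1 line per library at 3 months, HEM in red and WT in blue; the grey band is the promoter window. At the 3 positions in the band the HEM libraries and WT replicate 5 lie above 87%, the other WT libraries below 50%, and farther in both genotypes mix.

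Rpl39l, a ribosomal protein gene with its main expression in testis, had the window with most CpGs of the 20 named. The 17 listed positions, on 15 CG pairs, averaged 84.7%, 84.7%, 84.4% and 84.9% in HEM and 76.3%, 77.8%, 77.7% and 78.0% in WT. The 4 HEM libraries lay close together and above every WT library. The difference was 7.22 points (limma adjusted p = 0.880). The last 4 positions of the window were higher in HEM by 14.2 to 24.2 points, and 13 of the 17 were higher in all. Retrocopies of ribosomal protein genes are frequent, so the alignment of reads to this gene was not tested. At 13 months the window averaged 80.5% ± 2.29 in the 8 HEM libraries, against 80.7% ± 1.82 in the 4 WT libraries (SD).

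Adad2, a germ-cell gene with a deaminase domain, was at 89.4%, 98.6%, 89.1% and 92.0% in HEM and 80.1%, 72.6%, 73.8% and 73.6% in WT (17.3 points). Prnd, which encodes doppel, a relative of the prion protein, was at 31.9%, 32.2%, 17.83% and 28.5% in HEM and 15.99%, 17.79%, 6.999% and 0.741% in WT (17.2 points). Neither overlapped, though HEM replicate 3 and WT replicate 3 of Prnd were nearly equal. Slc7a7, an amino acid transporter gene of macrophages and epithelia, differed by 9.23 points, and HEM replicate 3 lay among the WT libraries. The noncoding or predicted genes Gm35133, Gm30145, Gm46646 and Gm35407 had differences of 4.13 to 10.2 points.

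On the lower side, Kcnk18, a background potassium channel gene of sensory neurons, was at 77.9%, 69.8%, 72.4% and 68.8% in HEM and 79.8%, 80.4%, 80.2% and 84.4% in WT (-8.998 points). Tstd1, a sulfurtransferase gene, was at 86.0%, 84.9%, 86.6% and 89.0% in HEM and 90.3%, 89.7%, 93.3% and 92.2% in WT (-4.75 points). All 7 positions of Kcnk18 and all 6 of Tstd1 were lower in HEM. Gm34777 differed by -13.1 points and Ccdc170 by -10.6 points, and the other windows of the 10, those of D7Ertd143e, Tmem267, Gm41403, 5730596B20Rik, Ppm1n and 4933431E20Rik, by -8.42 to -2.94 points. The limma adjusted p was 0.880 for each of the 20 windows.

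The single CpGs of smallest p lay at the ends of the scale. In 5 of them every HEM library was at 100%: inside Tcf7l1, St6galnac3, Dlgap1 and Atxn1 and 86609 bp from Sash1. WT levels were 76.8% to 88.9% at Tcf7l1, a transcription factor gene of Wnt signalling, and 87.5% to 91.0% at Atxn1, the ataxin gene. The reverse was seen inside Cdk5, whose kinase acts in neurons, with HEM at 78.6% to 88.9% and WT at 100% throughout, and inside Celsr1, a planar polarity gene, with HEM at 83.3% or more and WT at 100% throughout. HEM was at 0% in every library, and WT at 7.69% to 35.7%, inside Skor1, inside the overlapping genes Hoxd3 and Hoxd4, and 92586 bp from 1600014C23Rik. Their limma adjusted p ran from 0.0504 to 0.0706. A group of identical values at 0% or 100% has no spread, and the log2 scale stretches differences there.

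Of the 12631 gene regions tested, 5753 (45.5%) had the higher mean in HEM, which is the share against which each gene family or list is to be read. No member of any of the 54 families and lists was called. In the families shaping the embryo, 39 Hox genes were measured, 32 of them with a mean under 5%. Over all 39, means were 3.03% ± 0.334 in HEM and 3.46% ± 0.246 in WT (SD). All 7 tested had lower means in HEM (median -1.69 points). Hoxa5 was at 2.74%, 3.13%, 4.66% and 6.52% in HEM and 7.28%, 7.76%, 7.67% and 6.62% in WT, and Hoxa6 at 3.63%, 3.22%, 4.62% and 5.89% in HEM and 6.71%, 6.90%, 6.86% and 6.11% in WT. HEM replicates 1 and 2 were lowest in both. Group means were 4.26% in HEM and 7.33% in WT for Hoxa5, and 4.34% and 6.64% for Hoxa6. Both thus reached the 5% minimum only through WT, so the count of 7 gives no support. The annotated span of Hoxa3 covers Hoxa5 and Hoxa6, so these are not 3 separate observations. At 13 months all 7 had higher means in HEM, by a median of 1.67 points. Among Wnt and Frizzled genes 15 of 23 were lower in HEM, with Wnt5a at -1.19 points, and among forkhead genes 13 of 20.

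Clustered protocadherin genes, which give neurons surface identities, were higher in HEM in 37 of 44 regions (median 1.08 points). Of the 43 regions with values at 13 months, 27 were higher and 16 lower in HEM (median 0.353 points). These regions are nested, with shared 3′ exons, and the 2 of smallest p, Pcdhga3 and Pcdhga2, differed by 1.93 and 1.91 points. Their groups overlapped. Among cadherins proper 15 of 23 were higher in HEM, among glutamate receptor genes 9 of 25 and among potassium channel genes 42 of 84. The metabotropic glutamate receptor gene Grm3 was at 88.0%, 86.7%, 87.0% and 84.9% in HEM and 81.0%, 82.9%, 84.9% and 79.96% in WT (4.48 points). The GABA receptor subunit gene Gabrg1 was at 6.24%, 6.54%, 10.2% and 11.5% in HEM and 16.7%, 11.5%, 19.3% and 13.7% in WT (-6.70 points). In the synaptic vesicle list 7 of 15 were higher in HEM, and in the dopamine neuron list 2 of 8, where Th, the rate-limiting enzyme of dopamine synthesis, differed by -4.04 points and Nr4a2, a transcription factor of dopamine neurons, by 1.97 points.

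Of the 18 Parkinson disease genes tested, 2 had higher and 16 lower means in HEM, with a median of -0.344 points against -0.0578 over all gene regions. Most differences were under 1 point. Fbxo7, a ubiquitin ligase adaptor gene, was at 4.99%, 5.09%, 4.85% and 4.44% in HEM and 5.14%, 5.52%, 5.42% and 5.80% in WT. It was the 1 member of 18 whose groups did not overlap, as at 2.14% of all gene regions. It lay at the 5% minimum for testing, which it reached through WT, so its separation gives no support. Tmem175, a lysosomal ion channel gene with 5 CpGs, differed by -7.61 points with overlap, and Mapt, the tau gene, by -1.43 points. At 13 months 12 of the 18 had higher and 6 lower means in HEM.

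Imprinted genes averaged 40.7% ± 1.82 in HEM and 40.03% ± 2.09 in WT (SD, n = 4 each) over the 25 tested, of which 15 were higher in HEM. Grb10, an imprinted growth-restraining adaptor gene with 165 CpGs, was at 16.4%, 15.2%, 17.1% and 16.05% in HEM and 14.9%, 13.7%, 14.4% and 13.7% in WT (1.997 points), the 1 member of 25 without overlap, against 2.14% of all gene regions. Kcnq1ot1 differed by 5.64 points and Peg13 by 4.45 points in the same direction, and Mcts2 by -4.05 points and Peg3 by -3.86 points. The Snrpn region as a whole, with 38 CpGs, differed by 2.68 points.

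Immune genes and cell type markers gave the following. Microglia markers were higher in HEM in 12 of 15 regions (median 0.885 points), with list means of 51.4% ± 4.09 in HEM and 50.8% ± 3.33 in WT. Markers of border macrophages and leukocytes were higher in 6 of 6 (median 2.16 points), with list means of 56.5% to 62.6% in HEM libraries and 55.4% to 58.6% in WT libraries. Pf4 was at 42.8%, 45.9%, 29.05% and 34.6% in HEM and 34.1%, 41.5%, 24.8% and 25.7% in WT, and was highest in HEM replicates 1 and 2 and WT replicate 3, which also stood high in the microglia list. At 13 months 10 of 14 microglia markers and 5 of 6 of these were lower in HEM. Of interleukin and receptor genes 26 of 47 were higher in HEM, and the B-cell chemokine receptor gene Cxcr5 was at 83.4%, 84.4%, 78.1% and 76.4% in HEM and 70.8%, 77.1%, 65.3% and 62.7% in WT (11.6 points), with overlap. Spp1, the osteopontin gene of the disease-associated microglia list, differed by 8.61 points with overlap, while 7 of the 10 genes of that list were lower in HEM. Neuron, astrocyte, oligodendrocyte lineage and vessel markers were higher in HEM in 3 of 9, 3 of 8, 4 of 9 and 5 of 11.

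In chromatin and housekeeping families, 17 of 24 Kdm, Kmt and Hdac genes and 9 of 13 genes of the methylation machinery were lower in HEM. Kdm6b, a histone demethylase gene with 229 CpGs, was at 33.3%, 31.1%, 31.3% and 32.6% in HEM and 34.6%, 34.9%, 34.1% and 34.3% in WT (-2.41 points). In the methylation machinery, Dnmt3l, a cofactor of the methyltransferases in germ cells, differed by 0.819 points and Tet1 by 0.278 points, and Tet2 by -0.586 points, Uhrf1, which guides maintenance methylation, by -0.578 points and Dnmt1, the maintenance methyltransferase, by -0.487 points. Large families divided near the background, with 110 of 233 Zfp genes (median -0.0265 points), 125 of 282 solute carrier genes (median -0.0952 points) and 20 of 38 olfactory receptor genes (median 0.244 points) higher in HEM. Of 222 microRNA genes 121 were lower in HEM (median -0.152 points). Olfr1342 was at 54.6%, 58.5%, 51.1% and 51.1% in HEM and 49.7%, 46.5%, 46.3% and 45.9% in WT. Serpina1b, a protease inhibitor gene with 4 CpGs, differed by -9.34 points without overlap.

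**Figure D4:**
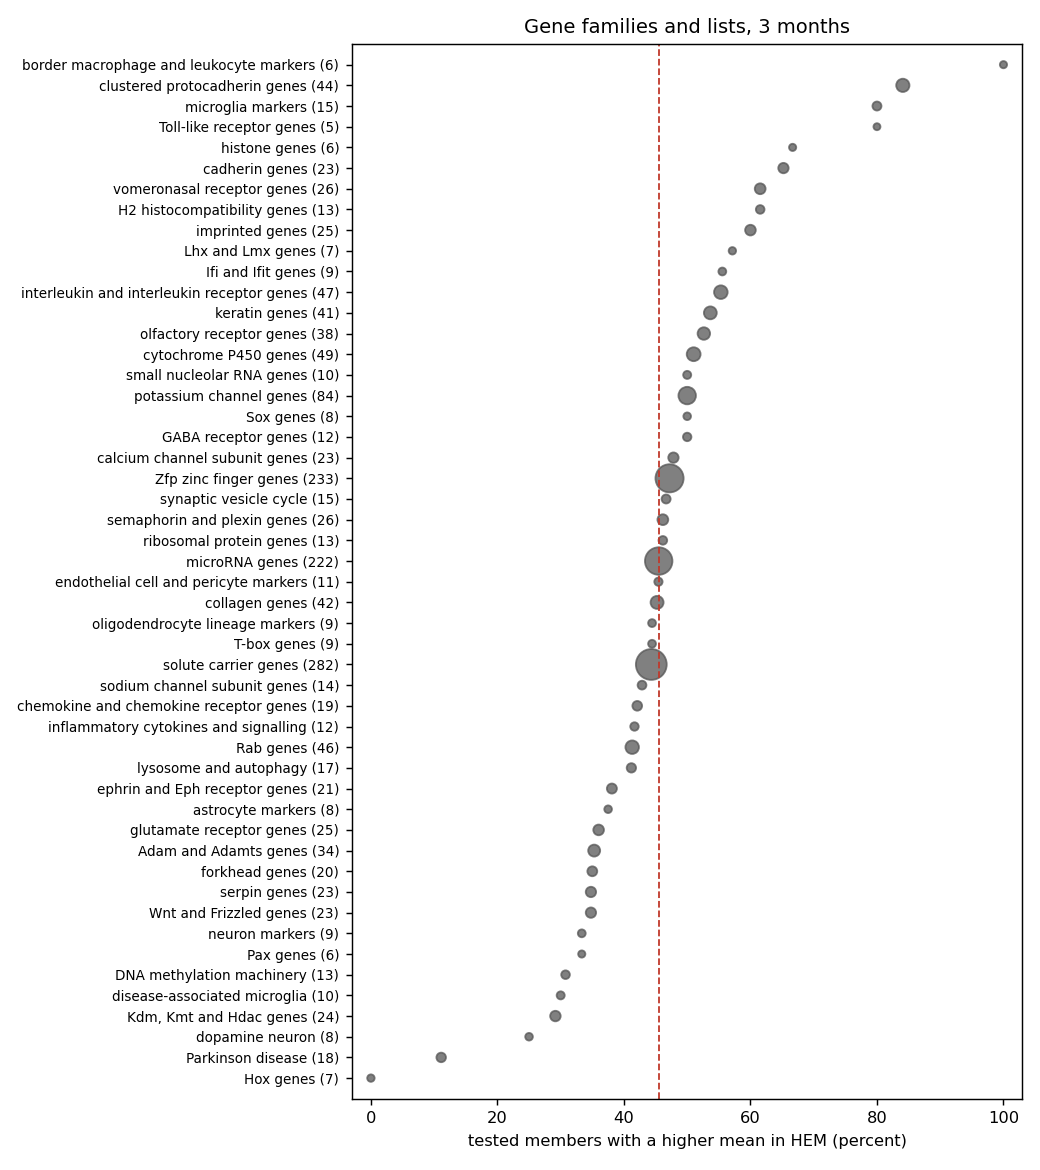
Share of tested gene regions with the higher mean in HEM (percent) for families and lists with at least 5 tested members, whose number stands in brackets and sets the point size; the dashed line is the 45.5% of all gene regions. Large families sit at the line, and the lists farthest from it are small or hold overlapping regions.

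Mice of 13 months gave values for 8 of the 20 named tiles, all 20 named gene regions and 15 of the 20 named promoter windows. The difference had the same direction as at 3 months in 2 tiles, 8 gene regions and 6 promoter windows, and no named tile or window had groups without overlap at 13 months. The 2 tiles were those in Pald1, at 47.8% ± 14.1 in the 8 HEM libraries, against 55.3% ± 3.27 in the 4 WT libraries (SD), and near Gxylt1. Of the 1704 tiles without overlap at 3 months that had values at 13 months, 616 (36.2%) had the same direction there, against 42.2% of all tiles tested. For gene regions the shares were 34.5% and 39.0%. The 2 ages use different mice and share no control libraries. Over all tiles and all gene regions, fewer loci thus had the same direction at both ages than the opposite one. Microglia marker regions did so too, with a median difference of 0.907 points at 3 months and -2.86 points at 13 months over the 14 with both values. Their part in the shares was not tested.

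**Figure D5:**
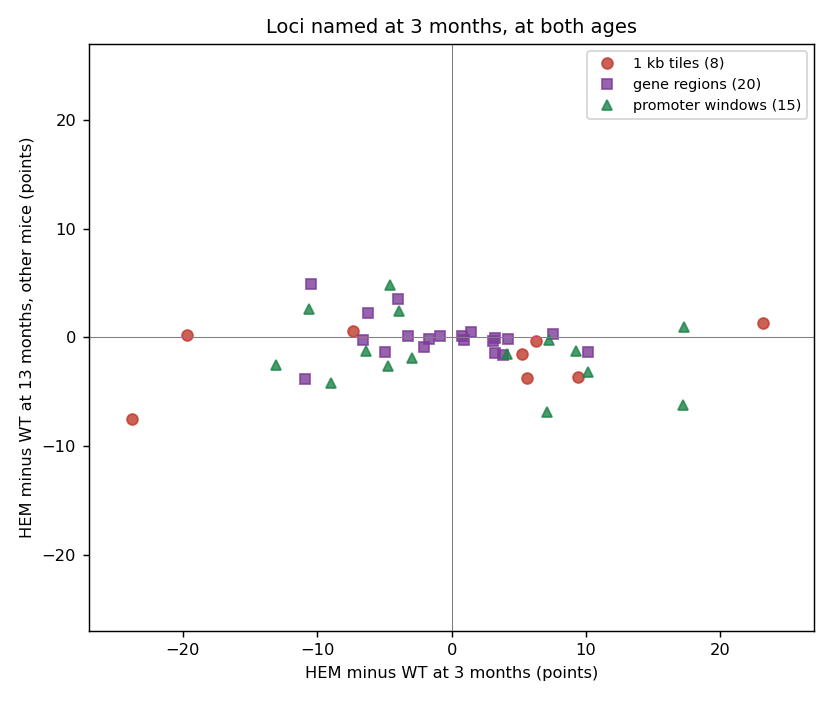
HEM minus WT difference in percentage points at 3 months (horizontal) and in other mice at 13 months (vertical) for the loci named at 3 months that had values at both ages: 8 tiles, 20 gene regions and 15 promoter windows. The points spread widely along the 3-month axis, on which they were chosen, and stay within 8 points of 0 on the 13-month axis.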

How the data were processed

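The deposited values were percent methylation per CpG position in each library. Per the submitters' processing notes the authors used Bowtie2, methylKit and the mm10 build; versions, settings and a coverage minimum are not given in the sources used here. No read counts came with the percent values, so depth and its intervals are unknown. The 21 value columns of unnamed series tables were not used.

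From these values, 1 kb tiles, gene regions and promoter windows (250 bases before to 50 after the start) were averaged over at least 3 listed positions. Gene regions were coding, microRNA and small nucleolar RNA genes with 1000 bp either side. A few noncoding genes of the imprinted list, Kcnq1ot1 and Peg13 among them, were added by name. Genes and windows came from RefSeq tables on GRCm38.p6, which hold no window for chromosome 18. Of 174555 listed positions in windows, 99.89% lay on a CG. Features with a mean of 5% to 95% were tested with limma 3.58.1 (R 4.3.3) on log2((percent + 1) / (100 - percent + 1)), with Benjamini-Hochberg adjustment over all features of a kind. That mean was over the 8 libraries, so 1 genotype alone could lie outside the range. Other work used Python 3.11.15, numpy 2.4.6 and pandas 2.3.3. Single values were tested with two-sided exact permutation tests, whose smallest p is 0.0286 for 4 against 4. The procedure was tested on simulated data.

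Named were the 10 tiles, gene regions and promoter windows and the 5 CpGs of smallest p in each direction, and the 2 members of smallest p in each of 39 families and 15 lists. List members named beyond these, the CpGs past Thy1 and those inside Snrpn were chosen after their values were seen. The members and lists were chosen with earlier results of these data known. Alternatives changed the offset, tile size, minimum of positions, mean range, strand merging, marker covariate, replicate block and the libraries used. Some named items are not reported here.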

Additional observations from a re-analysis of the deposited data

Results flagged for a closer look

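In groups of 4 libraries, the highest or lowest value was examined for standing far from the other 3. This was so in 10 of 294 groups (3.4%), and chance gives about 1 in 20. In WT, replicate 1 stood apart at the promoter windows of Adad2 (80.1%) and Rpl39l (76.3%). Replicate 3 did so at those of Gm35407 (88.5%) and D7Ertd143e (30.3%) and over the 4 CpGs about 1 kb past Thy1 (38.9%). Replicate 5 did so at the window of Kcnk18 (84.4%) and in the mean of lysosome and autophagy genes (19.9%). In HEM, replicate 3 stood apart at the window of Slc7a7 (8.36%), replicate 7 in the mean of potassium channel genes (32.5%) and replicate 1 in the mean of ribosomal protein genes (7.79%).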

How the results depend on the processing

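With no read counts, counting error could not be separated from differences between mice, and with 4 libraries a group each count of calls rests on few values. The count of called CpGs, 0 as reported, was 11 with no filter on the mean level (7 higher and 4 lower in HEM) and 8 with adjacent positions averaged (6 higher and 2 lower), and it ran from 0 to 56 when single libraries were left out, with 56 without WT replicate 1. Called tiles numbered 1, the tile near Olfr714, with a mean of 10% to 90% and again with at least 5 CpGs per tile, and 0 to 0 without single libraries. Called promoter windows ran from 0 to 2, the 2 being Snrpn and Snurf, which share 1 window, without WT replicate 5. Gene regions gave 0 under each alternative run. The difference of the means over autosomal CpGs ran from -0.178 to 0.144 points without single libraries and was reversed at 0.144 without WT replicate 4. The separation of genotypes ran from -0.145 to 0.102 points and was reversed without HEM replicate 3 (0.102) and without HEM replicate 7 (0.0806). The contrast of spread ran from -0.174 to 0.394 points and was reversed without HEM replicate 2 (-0.107), WT replicate 1 (-0.0847) and WT replicate 4 (-0.174). The cause of these changes was not tested. Alternatives were also chosen after seeing the data: without WT replicate 3 the Thy1 difference was -43.2 points, and without WT replicate 5 that of Snrpn was 71.2 points. With the replicate number as a block, 0 CpGs, tiles and gene regions were called, and promoter windows were not run. The numbers were not taken to pair the libraries, since deviations correlated at 0.116 for number 1 and -0.251 for number 3.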
